A study of Mus musculus with 14 samples.

Results

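The 40 genes described here carry out mitosis; they are 40 of the 24463 genes in the files, in 14 libraries of mouse leukemic stem cells (LSCs). The members were listed by name, with no measured value in the rule: they are mitotic kinases and cyclins, checkpoint and anaphase genes, centromere and kinetochore genes, spindle motors, chromosome proteins and cytokinesis genes. All 40 were found in the files. The cells come from a retroviral model of chronic myeloid leukemia, in which lineage-negative marrow is transduced with the BCR-ABL fusion kinase and LSCs are sorted as lineage-negative cells positive for c-Kit, Sca1 and the GFP of the virus. The groups were untreated LSCs from Tcf1/Lef1-deficient marrow (dKO, n = 3), LSCs from control marrow treated for 6 h with 20 µM prostaglandin E1 (PGE1, n = 3), with 20 µM prostaglandin E2 (PGE2, n = 2) or with the solvent (DMSO, n = 3), and untreated LSCs from control marrow (WT, n = 3). Every group thus carries BCR-ABL and grew with stem cell factor and thrombopoietin, so no library shows untransformed cells. Tcf1 (gene Tcf7) and Lef1 carry beta-catenin to its target genes; the labels give neither a Cre driver for the deletion nor the age of the mice. Nothing in the labels says whether replicates came from separate mice or cultures, so the p-values here cover library-to-library spread, which may be technical.

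Mitosis is switched on when the kinase Cdk1 is activated by its cyclins, and it ends when the anaphase-promoting complex (APC/C) marks the cyclins and the securin that restrains separase for destruction. The spindle checkpoint holds the APC/C back until every kinetochore, the protein platform built on centromeric chromatin, is attached to microtubules. Most of these genes are transcribed late in the cell cycle, from promoters bound by B-Myb and Foxm1 with the MuvB complex. In cycling marrow progenitors and leukemic cells the level of their transcripts is therefore read as a trace of proliferation. In bulk RNA, fewer cells in mitosis and less mitotic RNA per cell cannot be told apart.

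The libraries held 31.3 to 33.8 M reads in untreated groups and 19.0 to 22.7 M in treated groups. The rarest member in any library still had 297 reads. Titles and the genotype field go against each other for dKO replicate 1 and DMSO replicate 1, and groups here follow the titles. Tcf7 averaged 0.0996 ± 0.0674 FPKM in dKO and 1.31 ± 0.167 FPKM in WT (± SD here and below unless SE is named, n = 3 each; FPKM is fragments scaled to gene length and library depth), with 1.03 FPKM in DMSO replicate 1, which follows the titles. Lef1 averaged 0.151 ± 0.0411 FPKM in dKO and 0.283 ± 0.0524 FPKM in WT, and each gene's exact permutation p was 0.1, the smallest that 3 against 3 allow. Of the sort markers, Kit lay between 20.8 and 48.5 FPKM in all libraries. It was at 35.4 to 48.5 FPKM in PGE1, against 23.2 to 27.6 FPKM in DMSO and 22.4 to 23.6 FPKM in PGE2. Ly6a, which encodes Sca1, was at 2.86 to 3.53 FPKM in dKO, against 10.4 to 12.6 FPKM in WT. Its PGE1 libraries (10.6 to 15.3 FPKM) overlapped those of DMSO (12.9 to 17.8 FPKM). Cd34, which was not among the sort markers, went the other way from Kit with PGE1. It was at 18.8 to 20.3 FPKM in PGE1, against 39.5 to 42.7 FPKM in DMSO and 46.1 to 48.7 FPKM in PGE2. In dKO Cd34 was at 34.5 to 37.3 FPKM, against 64.0 to 67.2 FPKM in WT. Ddx3y, a Y-linked gene, was listed at 0 in all dKO libraries and at 7.72 to 8.94 FPKM in WT. Xist, made from the inactive X of female cells, was at 12.4 to 27.6 FPKM in dKO and 9.81 to 10.6 FPKM in WT. WT libraries thus held both, and sex makeup and genotype cannot be told apart in that comparison. Xist also differed among treated groups, at 3.54 to 8.14 FPKM in PGE1, 9.05 to 11.2 FPKM in DMSO and 14.6 to 14.9 FPKM in PGE2. The part of sex makeup in those comparisons was not tested. PGE1 replicate 2, DMSO replicate 1 and dKO replicate 1 stood apart from their groups: the variance between replicates was 41.5 and 43.0 times counting noise in pairs with PGE1 replicate 2, and 11.4 times in the remaining PGE1 pair. It was 14.9 and 17.1 times in pairs with DMSO replicate 1 (1.84 in the remaining pair) and 14.1 and 14.8 times in pairs with dKO replicate 1 (5.19 in the remaining pair).

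The members were well expressed in every group. Averaged over the 14 libraries they ran from 6.19 FPKM for Cenpf to 84.9 FPKM for Top2a. Their summed level was 1220 to 1274 FPKM in dKO, 1135 to 1171 FPKM in PGE1, 1032 to 1033 FPKM in PGE2, 916 to 949 FPKM in DMSO and 1183 to 1196 FPKM in WT. DMSO cells thus had the lowest sums, and no 2 of these ranges overlapped. The sums were not scaled to the total FPKM of each library, which also differed between groups. That total was 268135 to 272672 in dKO, 259619 to 260998 in WT and 239066 to 265685 in PGE1. Whether dKO, PGE1 and WT stay apart after such scaling was not tested. The members did not move as a block: the correlation of each with the members' mean over the 14 libraries, a description across libraries that share groups and depth, ran from 0.98 for Kif11 and 0.93 for Nek2 to -0.04 for Dlgap5 and -0.09 for Kif23.

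**Figure D1:**
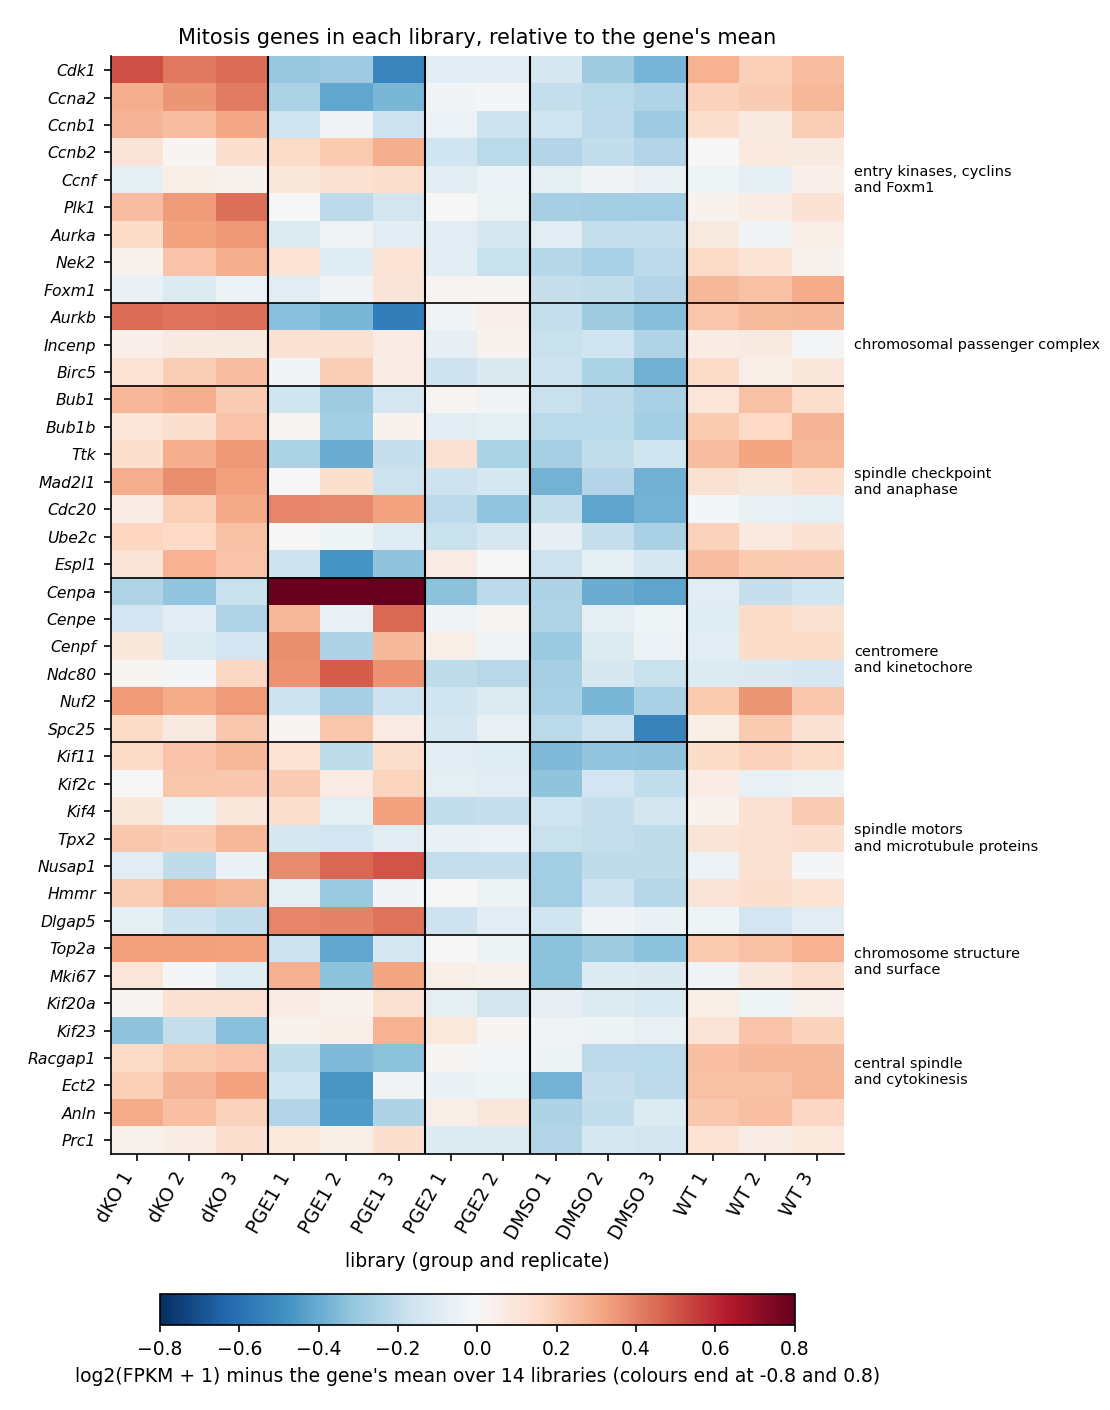
Each row is a mitosis gene, grouped by role, and each column is a library. Colour is log2(FPKM + 1) minus the gene's mean over the 14 libraries. In the PGE1 columns Cenpa, Cdc20, Nusap1, Ndc80 and Dlgap5 stand above their means while Cdk1, Aurkb and Ccna2 stand below theirs; in the DMSO columns nearly all rows lie below their means.

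The first question was what 6 h of PGE1 did to the mitotic transcripts of control LSCs. PGE1 raised 19 of the 40 members above DMSO and lowered none at a limma adjusted p below 0.05, against 49.1% of 11242 tested genes called in either direction (23.6% higher, 25.5% lower). The rise was uneven: the centromeric histone Cenpa more than doubled, and Cdc20, Nusap1, Ndc80, Dlgap5 and Ccnb2 followed, while Cdk1, Aurkb, Ccna2 and the cytokinesis genes Racgap1 and Anln had lower means in PGE1 that did not pass the test. The median difference over the 40 members was 0.17 on the log2(FPKM + 1) scale, against 0.01 over all genes tested, and 33 of 40 were positive. The libraries of both groups did not overlap for 22 members, against 57.2% of all genes tested. Without PGE1 replicate 2, 25 members were called, all higher; without DMSO replicate 1, 15 were, all higher; and without PGE1 replicate 1, 17 were higher and 2, Ccna2 and Espl1, lower.

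Among centromere and kinetochore genes, 4 of 6 rose with PGE1 and the median difference was 0.38. Cenpa, the histone H3 variant that marks centromeres, had 125, 154 and 132 FPKM in PGE1 libraries, against 60.3, 54.4 and 53.2 FPKM in DMSO libraries. Every PGE1 library was more than double every DMSO library, a 2.45-fold difference of means (log2 difference 1.28 ± 0.09 SE, limma adjusted p = 1.35e-05). Ndc80, a subunit of the complex that binds microtubules to the kinetochore, had 15.5, 17.04 and 15.6 FPKM in PGE1, against 9.71, 10.8 and 10.4 FPKM in DMSO, with no overlap. It rose 1.56-fold (log2 difference 0.59 ± 0.07 SE, limma adjusted p = 0.000144). Its partner Spc25 rose 1.35-fold (limma adjusted p = 0.0103), while Nuf2, which pairs directly with Ndc80, averaged 14.2 FPKM in PGE1 and 13.2 FPKM in DMSO and did not pass (log2 difference 0.09, 95% interval -0.05 to 0.24). Cenpe, a kinetochore kinesin, passed narrowly (13.2 FPKM in PGE1, 10.2 FPKM in DMSO, limma adjusted p = 0.0475), but PGE1 replicate 2, at 10.6 FPKM, lay within the DMSO range of 9.21 to 10.8 FPKM. The group's summed level was 193 to 219 FPKM in PGE1, against 104 to 111 FPKM in DMSO. Most of that difference was Cenpa, at 125 to 154 FPKM in PGE1 and 53.2 to 60.3 FPKM in DMSO.

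Of the spindle motors and microtubule proteins, 5 of 7 rose with PGE1. Nusap1, which bundles spindle microtubules, had 22.4, 23.8 and 24.5 FPKM in PGE1, against 13.9, 14.6 and 14.7 FPKM in DMSO. Its libraries were well apart and it rose 1.64-fold (log2 difference 0.67 ± 0.06 SE, limma adjusted p = 3.82e-05). Dlgap5, a spindle-assembly factor, had 22.5, 22.6 and 23.3 FPKM in PGE1, against 15.0, 16.6 and 16.3 FPKM in DMSO, again with no overlap (1.43-fold, limma adjusted p = 0.00023). Kif2c, a microtubule depolymerase, Kif11, the motor that pushes spindle poles apart, and Kif4, a chromosome-bound kinesin, rose 1.32-fold, 1.30-fold and 1.26-fold. Of these, Kif4 (limma adjusted p = 0.0326) was called in only 9 of 17 alternative fits. The other two did not pass: Tpx2, an activator of Aurka, averaged 29.9 FPKM in PGE1 and 28.5 FPKM in DMSO, and Hmmr, a spindle pole protein, 13.5 FPKM in PGE1 and 12.6 FPKM in DMSO.

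In the checkpoint and anaphase group 2 of 7 rose. Cdc20, the activator through which the APC/C starts anaphase and the target of the checkpoint, had 79.1, 79.0 and 75.6 FPKM in PGE1, against 52.7, 44.8 and 46.2 FPKM in DMSO. The groups did not overlap and the difference of means was 1.63-fold (log2 difference 0.69 ± 0.07 SE, limma adjusted p = 0.000101). Mad2l1, a checkpoint protein that binds Cdc20, rose 1.26-fold (limma adjusted p = 0.0128). The checkpoint kinases Bub1 and Ttk and the pseudokinase Bub1b were not called. Espl1, the separase that cuts cohesin, averaged 8.44 ± 0.997 FPKM in PGE1 and 9.74 ± 0.379 FPKM in DMSO and was not called either (limma adjusted p = 0.0932).

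Among the kinases, cyclins and Foxm1, 4 of 9 rose with PGE1. Ccnb2, a B-type cyclin, had 50.9, 52.8 and 56.1 FPKM in PGE1, against 38.7, 39.6 and 38.6 FPKM in DMSO, and rose 1.37-fold (limma adjusted p = 0.000312). Nek2, a kinase that separates centrosomes, rose 1.23-fold, Foxm1, a transcription factor of this gene set, 1.17-fold, and Ccnf, the substrate receptor of a ubiquitin ligase, 1.13-fold. Foxm1 and Ccnf (limma adjusted p = 0.034 and 0.0258) were each called in only 10 of 17 alternative fits. Cdk1 itself had 26.4, 26.6 and 22.5 FPKM in PGE1, against 29.7, 26.8 and 25.2 FPKM in DMSO, and its groups overlapped (log2 difference -0.11, limma adjusted p = 0.311). Ccna2, the A-type cyclin, had 42.4, 37.7 and 39.1 FPKM in PGE1, against 44.2, 43.4 and 42.7 FPKM in DMSO. Its groups did not overlap, yet it did not pass (limma adjusted p = 0.105). Plk1 and Aurka, kinases of spindle assembly, and Ccnb1 were not called.

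The chromosomal passenger complex, which corrects faulty attachments, was split. Its scaffold Incenp averaged 49.57 ± 1.098 FPKM in PGE1 and 40.15 ± 1.210 FPKM in DMSO (1.23-fold, limma adjusted p = 0.00238), and its targeting subunit Birc5, or survivin, rose 1.29-fold (limma adjusted p = 0.00671). Its kinase Aurkb had 33.9, 33.0 and 28.9 FPKM in PGE1, against 37.5, 35.0 and 33.7 FPKM in DMSO, and overlapped (limma adjusted p = 0.135). Of the central spindle and cytokinesis genes, Prc1, which bundles midzone microtubules, rose 1.21-fold and Kif20a, a midzone kinesin, 1.13-fold. Kif20a (limma adjusted p = 0.0285) was called in only 11 of 17 alternative fits. The other four, Kif23, Racgap1, Ect2 and Anln, were not called. Top2a, which untangles sister DNA, and Mki67, which coats chromosomes, were not called; Mki67 had 54.8, 35.5 and 56.0 FPKM in PGE1, with replicate 2 at the level of the lowest DMSO library, 35.5 FPKM.

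Some of the reads behind these values may belong to neighbours. Exons of 8 of the 40 members overlap another gene of the files in the annotation, and strand handling is not stated, so shared reads cannot be told apart. Elovl1, which overlaps Cdc20, averaged 44.5 FPKM in PGE1 and 52.9 FPKM in DMSO, a fall (limma adjusted p = 0.027). Oip5, which overlaps Nusap1, averaged 6.97 FPKM in PGE1 and 5.79 FPKM in DMSO and was not called (limma adjusted p = 0.0857).

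**Figure D2:**
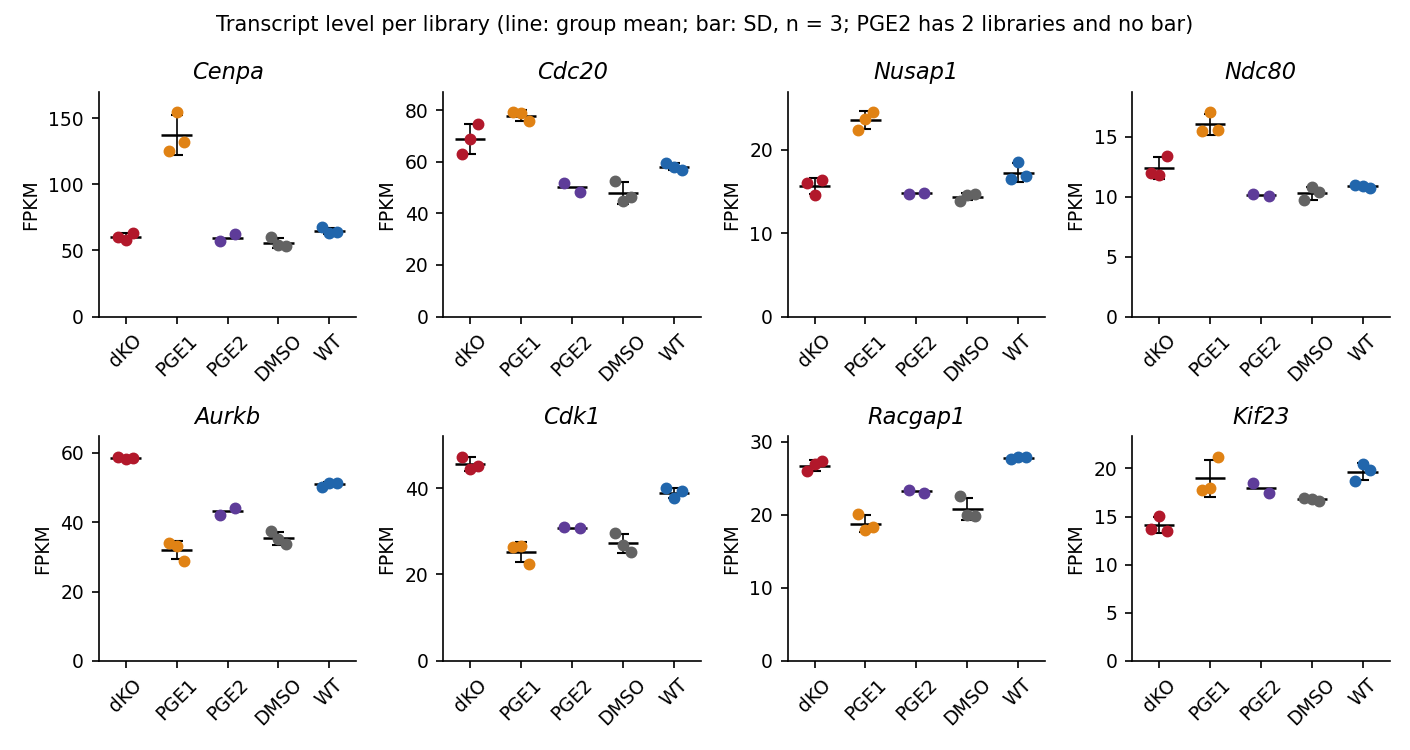
FPKM per library for 8 mitosis genes, with group means as lines and SD bars for groups of 3. Cenpa, Cdc20, Nusap1 and Ndc80 are highest in PGE1; Aurkb, Cdk1 and Racgap1 have their lowest means there; and Kif23 has its lowest libraries in dKO, at 13.5 to 15.1 FPKM.

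PGE1 and PGE2 were given at the same dose for the same time, and they differ in structure by a side-chain double bond that PGE2 has and PGE1 lacks. The 40 members were compared between them in the fit across all genes, and 17 differed: 11 were higher in PGE1 and 6 lower, against 53.9% of all genes tested (27.2% higher, 26.7% lower). With median-of-ratios scaling the split was 6 higher and 8 lower. The median difference was 0.09 on the log2(FPKM + 1) scale, against 0.02 over all genes. Libraries did not overlap for 25 members, against 69.9% of all genes tested. Leaving out PGE1 replicate 2 gave 22 calls, and leaving out either PGE2 library gave 9 calls, with 1 PGE2 library assumed to vary like the other groups.

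Cenpa was again the extreme, at 125, 154 and 132 FPKM in PGE1, against 57.1 and 62.1 FPKM in PGE2 (2.30-fold, log2 difference 1.19 ± 0.10 SE, limma adjusted p = 3.58e-05). Nusap1, Ndc80 and Cdc20 were 1.59-fold, 1.58-fold and 1.56-fold higher in PGE1, and Dlgap5 and Ccnb2 1.48-fold and 1.33-fold higher. The remaining 5 that were higher in PGE1, Kif4, Kif2c, Prc1, Ccnf and Kif20a, differed by 1.14-fold to 1.29-fold.

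The 6 lower members were Aurkb, Anln, Espl1, Ccna2, Racgap1 and Cdk1. Aurkb had 33.9, 33.0 and 28.9 FPKM in PGE1, against 42.2 and 44.1 FPKM in PGE2, with no overlap (log2 difference -0.43 ± 0.08 SE, limma adjusted p = 0.00262). Anln, the scaffold of the contractile ring, had 8.96, 7.54 and 8.87 FPKM in PGE1, against 11.1 and 11.5 FPKM in PGE2 (limma adjusted p = 0.00617). Espl1 had 9.46, 7.47 and 8.40 FPKM in PGE1, against 11.3 and 10.8 FPKM in PGE2 (limma adjusted p = 0.0123). Both sets of PGE1 libraries lay wholly below PGE2. Ccna2 averaged 39.7 ± 2.39 FPKM in PGE1 and 50.0 ± 0.284 FPKM in PGE2, and Cdk1 25.2 ± 2.32 FPKM in PGE1 and 30.9 ± 0.140 FPKM in PGE2. Racgap1, the GTPase-activating partner of Kif23, averaged 18.8 FPKM in PGE1 and 23.2 FPKM in PGE2. Each of the 6 had a mean above DMSO in PGE2 and below DMSO in PGE1.

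For the 23 members not called, every 95% interval of the difference lay within 1.5-fold in either direction, from -0.49 to 0.54 on the log2 scale. The closest means were those of Ccnb1 (7.97 FPKM in PGE1 and 8.005 FPKM in PGE2, interval -0.20 to 0.19), Bub1b (26.8 FPKM in PGE1 and 26.6 FPKM in PGE2, interval -0.21 to 0.22) and Foxm1 (11.5 FPKM in PGE1 and 11.6 FPKM in PGE2, interval -0.19 to 0.15). The intervals for Top2a (-0.43 to -0.02), Bub1 (-0.35 to -0.03) and Birc5 (0.01 to 0.42) left out 0, with limma adjusted p of 0.0574, 0.0513 and 0.0672.

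The promoters of the members shared 2 motifs of cell cycle genes. A promoter window is the 300 bases from 250 before to 50 after a gene's start in the RefSeq table (build GRCm38.p6); 33 of the 40 members matched it, with 35 windows. The cell cycle homology region (CHR, searched as TTTGAA or TTCGAA on both strands; TTCGAA reads the same on each) lay in 28 of 35 member windows (80.0%), against 19.2% of 32851 windows of all genes. CCAAT, searched on both strands, lay in 28 of 35 (80.0%), against 37.4%, and both motifs lay in 25 of 35 (71.4%), against 7.52%. A match is a description of letters and not a bound site. The 4 promoters below are shown as examples, 2 of genes that were higher in PGE1 than in PGE2 (Cenpa and Cdc20) and 2 of genes that were lower (Espl1 and Cdk1). Each line holds the 150 bases before the start, 5′ to 3′ on the strand of the gene, with CHR and CCAAT matches in capitals. They were picked after their values were seen and span chr5:30666736-30666885 (plus strand), chr4:118437344-118437493 (minus), chr15:102296143-102296292 (plus) and chr10:69352913-69353062 (minus), in the order below.
Cenpa: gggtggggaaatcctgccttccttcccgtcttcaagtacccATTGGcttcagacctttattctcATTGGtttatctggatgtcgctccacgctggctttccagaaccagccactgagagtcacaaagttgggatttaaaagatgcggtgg
Cdc20: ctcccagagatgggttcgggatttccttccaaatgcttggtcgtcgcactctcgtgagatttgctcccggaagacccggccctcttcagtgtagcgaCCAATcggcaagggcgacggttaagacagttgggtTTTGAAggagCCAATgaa
Espl1: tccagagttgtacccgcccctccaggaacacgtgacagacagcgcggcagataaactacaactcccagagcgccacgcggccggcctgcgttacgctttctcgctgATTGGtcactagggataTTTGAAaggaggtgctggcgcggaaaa
Cdk1: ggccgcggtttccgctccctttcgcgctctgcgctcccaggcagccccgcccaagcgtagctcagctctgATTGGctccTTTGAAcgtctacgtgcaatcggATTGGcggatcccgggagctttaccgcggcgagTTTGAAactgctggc

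Cdc20, which was higher in PGE1, and Espl1 and Cdk1, which were lower, all carry both motifs in these bases, and Cenpa carries CCAAT alone. Cenpa also has a CHR match 17 bases after the start, outside the printed bases but inside the counted window. Of 4 further promoters looked at, those of Nusap1, Ndc80 and Anln held neither motif in the 150 bases before the start and that of Racgap1 held CCAAT alone. Ndc80, Anln and Racgap1 have a CHR match after the start, and Nusap1 has neither motif anywhere in the window.

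Against DMSO, PGE2 called none of the 40 members at a limma adjusted p below 0.05, against 5.57% of 11242 genes tested (0.996% higher, 4.57% lower). At an unadjusted p below 0.05 there were 11, all with higher means in PGE2, against 2341 of the 11242 genes tested in either direction. The median difference was 0.15, against 0.00 over all genes, and 35 of 40 members were positive. PGE2 libraries lay wholly above DMSO for 28 members and wholly below for 0. Of all 11242 genes tested, 2810 lay wholly above and 2705 wholly below (49.1% in either direction). Without PGE1 replicate 2, which enters through the shared spread, 4 members were called, all higher in PGE2. Over all genes 1218 of 11220 were then called, 358 higher and 860 lower. Without PGE1 replicate 2 and DMSO replicate 1, 6 members were called, all higher. In that fit 1763 of 11210 genes were called, 689 higher and 1074 lower, so calls rose over all genes as well.

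Top2a had the greatest difference of means, at 83.8 and 81.2 FPKM in PGE2, against 66.4, 68.5 and 66.2 FPKM in DMSO. The groups did not overlap, and the 1.23-fold difference had a limma adjusted p of 0.0952 (log2 difference 0.30, 95% interval 0.09 to 0.50). Aurkb averaged 43.1 FPKM in PGE2 and 35.4 FPKM in DMSO (limma adjusted p = 0.0952), and Plk1 33.7 FPKM in PGE2 and 28.1 FPKM in DMSO (limma adjusted p = 0.0837). For the genes that PGE1 raised most, the intervals were narrow around small values: Cenpa averaged 59.6 FPKM in PGE2 and 56.0 FPKM in DMSO (log2 difference 0.09, interval -0.14 to 0.32), and Ndc80 10.1 FPKM in PGE2 and 10.3 FPKM in DMSO (log2 difference -0.02, interval -0.19 to 0.15). The interval lay within 1.5-fold for 39 of the 40 members, the exception being Mki67. Both compounds were set against the same DMSO libraries, so their differences from DMSO are not independent.

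**Figure D3:**
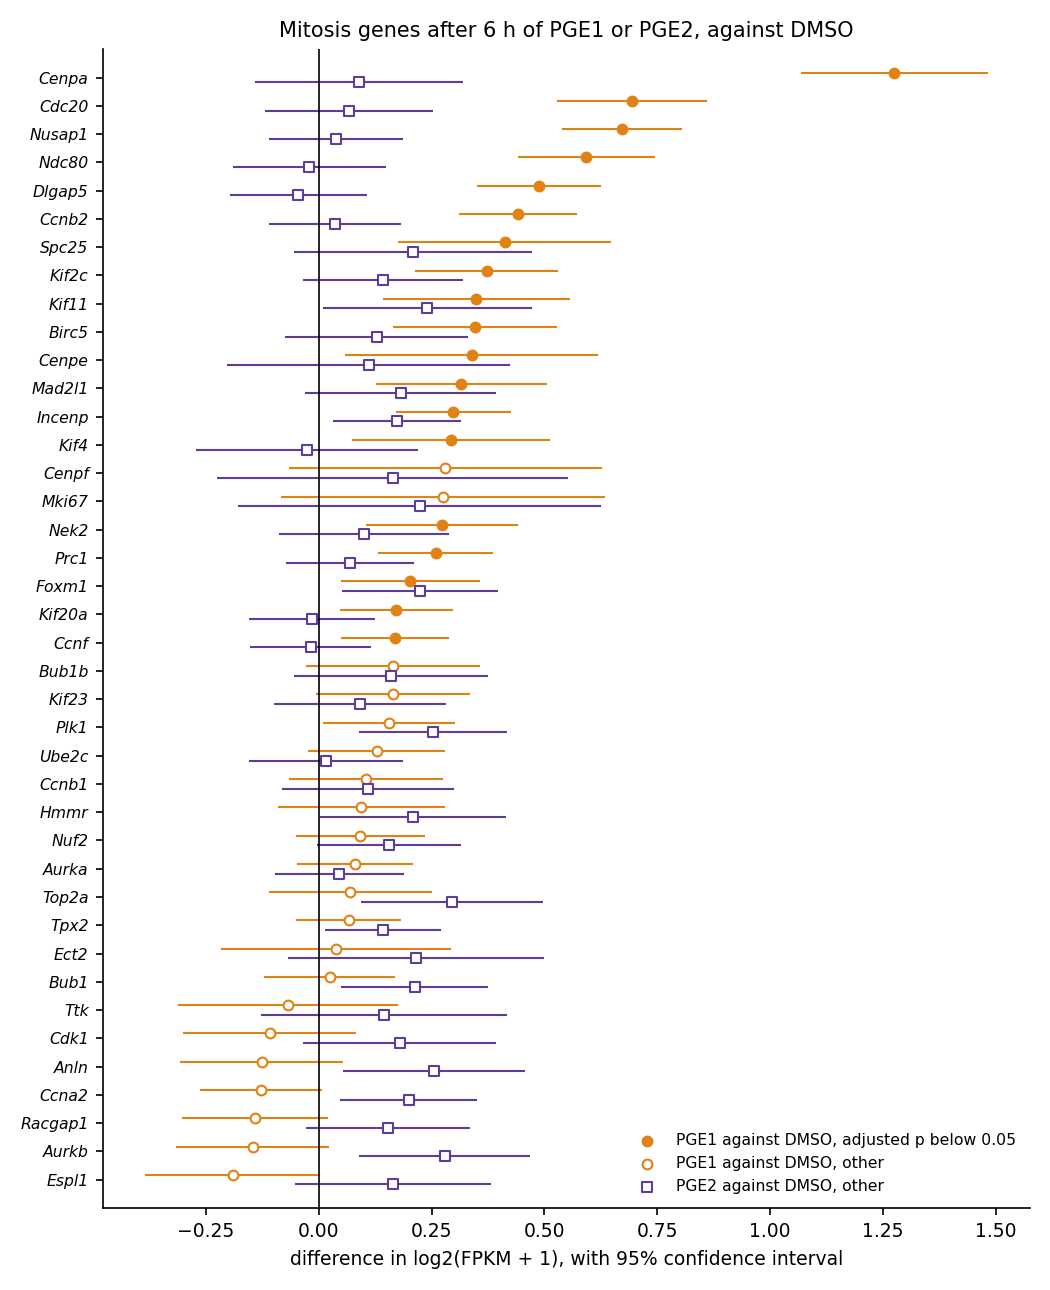
Difference in log2(FPKM + 1) from DMSO for each member, with 95% confidence intervals, for PGE1 (circles) and PGE2 (squares); filled symbols passed an adjusted p of 0.05. The 19 filled circles are all right of 0, led by Cenpa at 1.28, and no square is filled.

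The second question was what the loss of Tcf1 and Lef1 did to these genes in untreated LSCs. Of the 40 members, 12 were called, 10 higher and 2 lower in dKO, against 40.9% of 10721 genes tested (18% higher, 22.9% lower). Kinases of mitotic entry and of the spindle were among the higher ones, with small differences of 1.08-fold to 1.21-fold, while the larger differences were the falls of Kif23 and Foxm1. The median over the members was 0.04, against -0.01 over all genes, and 26 of 40 were positive. Libraries did not overlap for 16 members, 12 higher and 4 lower in dKO. Of all 10721 genes tested, 2710 were wholly higher and 3172 wholly lower (54.9% in either direction). Over all genes 44.1% of calls were higher in dKO, against 60.2% with quantile normalization and 56.1% with median-of-ratios scaling. Without dKO replicate 1, 15 members were called, 13 higher and 2 lower; without WT replicate 2 or 3 there were 6 and 7 calls.

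Plk1, which acts from centrosome maturation to cytokinesis, had 40.8, 43.5 and 46.7 FPKM in dKO, against 35.0, 35.7 and 37.2 FPKM in WT. The groups did not overlap and the difference of means was 1.21-fold (log2 difference 0.27 ± 0.05 SE, limma adjusted p = 0.00589). Cdk1 had 47.3, 44.3 and 45.1 FPKM in dKO, against 39.9, 37.6 and 39.2 FPKM in WT (1.17-fold, limma adjusted p = 0.00451). Aurkb had 58.9, 58.4 and 58.7 FPKM in dKO, against 50.2, 51.5 and 51.5 FPKM in WT (1.15-fold, limma adjusted p = 0.0024). In all of these the dKO libraries lay wholly above WT. Aurka and Cdc20 were each 1.19-fold higher and Mad2l1 1.17-fold higher. Ndc80, Hmmr, Ccna2 and Tpx2 were 1.08-fold to 1.14-fold higher, with limma adjusted p of 0.0313 to 0.0431, and each lost its call under several alternatives.

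Kif23, the kinesin of the centralspindlin complex that builds the midzone and the midbody, had 13.7, 15.1 and 13.5 FPKM in dKO, against 18.7, 20.4 and 19.8 FPKM in WT. All dKO libraries were lower, and the mean was 1.39-fold higher in WT (log2 difference -0.45 ± 0.06 SE, limma adjusted p = 0.000626). Foxm1 had 11.01, 10.5 and 11.1 FPKM in dKO, against 14.01, 13.7 and 14.3 FPKM in WT, with tight and separate groups (log2 difference -0.34 ± 0.04 SE, limma adjusted p = 0.000698). Both were lower and called under all 14 alternatives, as Plk1, Cdk1, Aurkb and Mad2l1 were higher. Cenpa averaged 60.5 ± 2.93 FPKM in dKO and 64.9 ± 2.18 FPKM in WT (limma adjusted p = 0.117), and Top2a 104.9 ± 0.322 FPKM in dKO and 98.8 ± 2.27 FPKM in WT (limma adjusted p = 0.074). All 28 members not called had intervals within 1.5-fold, between -0.39 and 0.32.

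**Figure D4:**
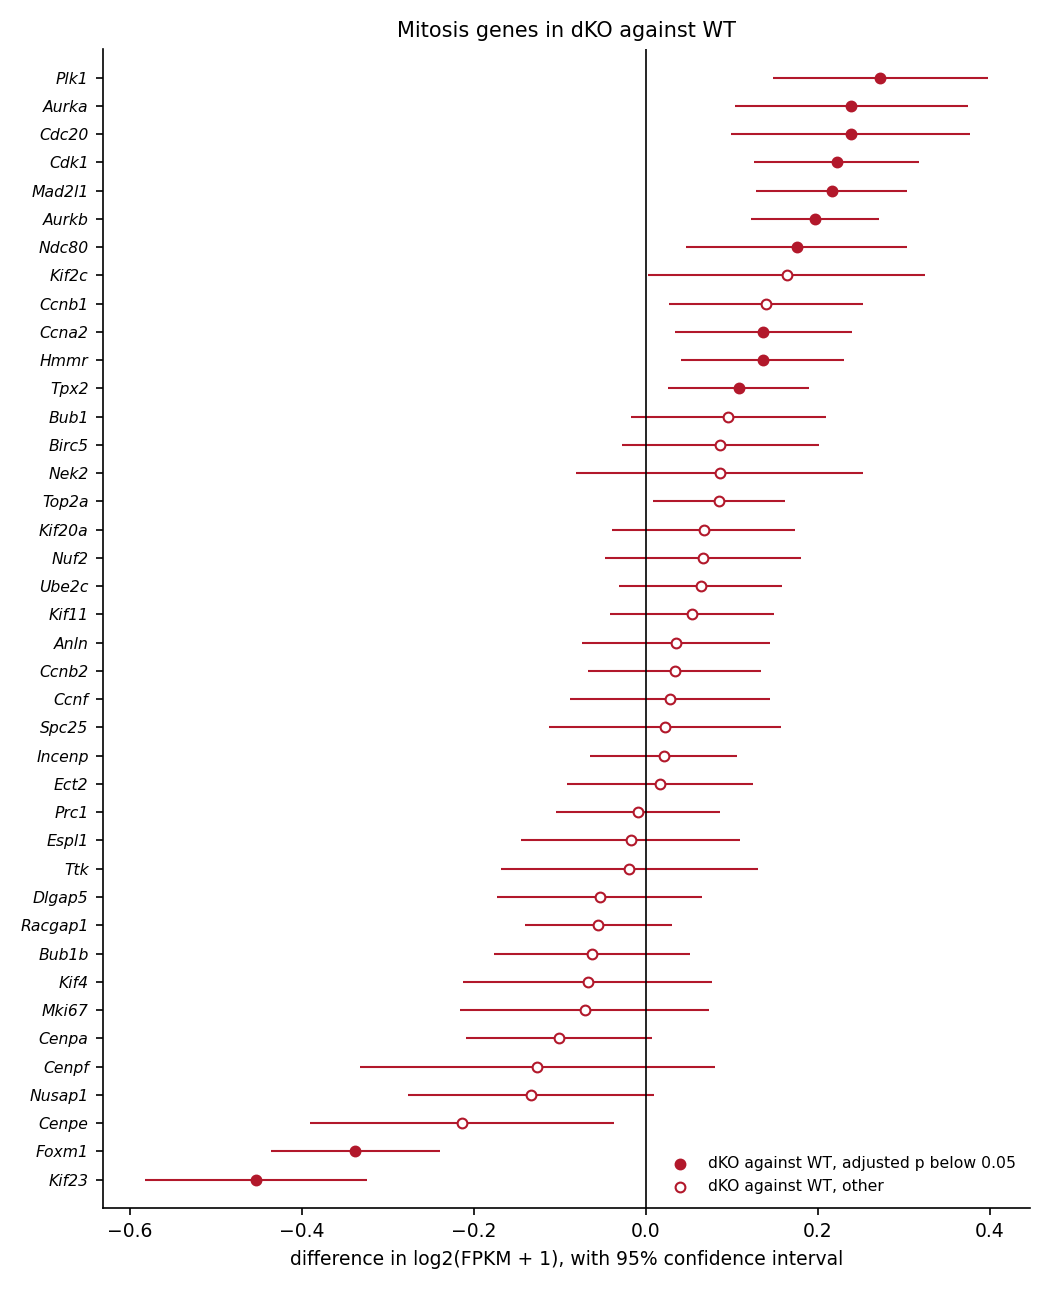
Difference in log2(FPKM + 1) between dKO and WT for each member, with 95% confidence intervals; filled circles passed an adjusted p of 0.05. Kif23 and Foxm1 are the 2 filled circles left of 0, and the 10 to the right end with Plk1 at 0.27.

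DMSO-treated cells had lower mitotic transcripts than untreated WT cells. Of the 40 members 35 were lower in DMSO and none higher, against 56.6% of 11115 genes tested (26% higher, 30.7% lower), and the median difference was -0.33, against -0.03 over all genes. For 35 members the libraries did not overlap, against 64.3% of all genes tested. The exposure to the solvent, any added time in culture and the separate, shallower set of libraries go together here and cannot be told apart. Top2a had 66.4, 68.5 and 66.2 FPKM in DMSO, against 96.7, 98.5 and 101 FPKM in WT (log2 difference -0.55 ± 0.04 SE, limma adjusted p = 1.83e-05). Nuf2 averaged 13.2 ± 0.593 FPKM in DMSO and 19.9 ± 1.17 FPKM in WT, Aurkb 35.4 ± 1.90 FPKM in DMSO and 51.1 ± 0.700 FPKM in WT, and Cdk1 27.2 ± 2.28 FPKM in DMSO and 38.92 ± 1.198 FPKM in WT. The kinases, checkpoint genes and cytokinesis genes took part nearly throughout, with 8 of 9, 7 of 7 and 6 of 6 lower. The 5 members not called were Cenpe, Cenpf, Ndc80, Ccnf and Dlgap5, of which Dlgap5 averaged 16.0 FPKM in DMSO and 15.8 FPKM in WT (interval -0.11 to 0.13).

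Some partners in 1 complex differed between groups in their ratio of levels, and others did not separate. The pairs below were chosen after the values were seen, and their ratios within a library are given with no test. Ndc80 over Nuf2 was 0.57 to 0.64 in dKO, 1.07 to 1.26 in PGE1, 0.66 to 0.70 in PGE2, 0.71 to 0.86 in DMSO and 0.51 to 0.57 in WT, so PGE1 alone had more Ndc80 than Nuf2. Kif23 over Racgap1, which together form centralspindlin, was 0.50 to 0.56 in dKO, against 0.68 to 0.73 in WT, and 0.89 to 1.16 in PGE1, against 0.75 to 0.84 in DMSO. Incenp over Aurkb was 1.48 to 1.67 in PGE1, against 1.08 to 1.17 in DMSO, and Ccnb2 over Cdk1 was 1.93 to 2.50 in PGE1, against 1.30 to 1.53 in DMSO. Ndc80 over Spc25, its other partner in the complex, was 0.936 to 0.993 in PGE1, inside the 0.739 to 1.004 of DMSO. In the other 4 ratios PGE1 did not overlap DMSO, and Kif23 over Racgap1 did not overlap between dKO and WT.

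**Figure D5:**
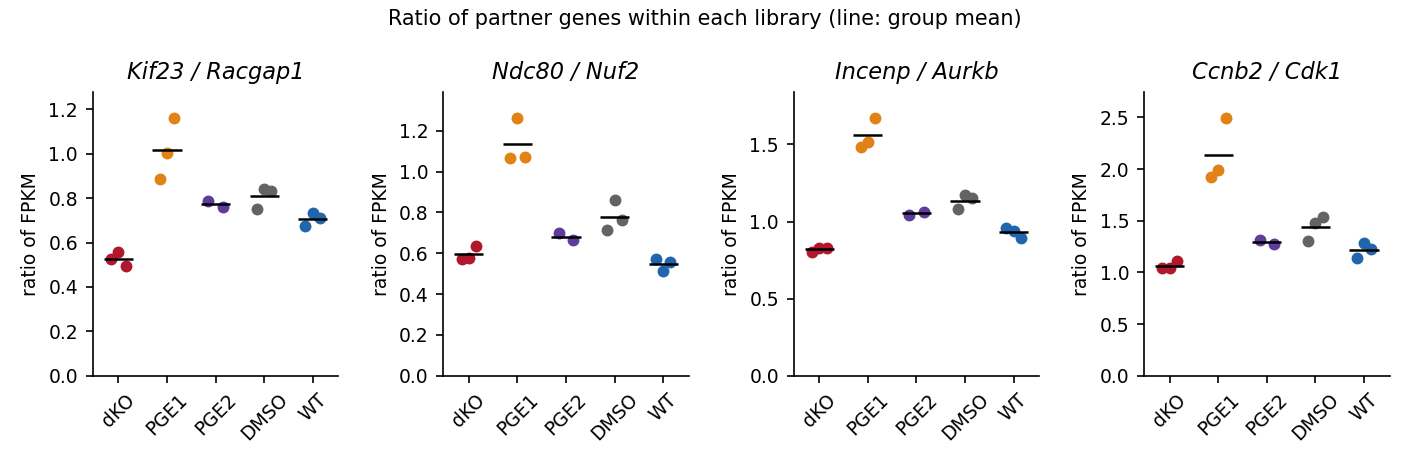
Ratio of FPKM between partner genes in each library, with group means as lines. Kif23 over Racgap1 is lowest in dKO (0.50 to 0.56), and the 4 plotted ratios, chosen after their values were seen, have their highest means in PGE1.

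The 139 genes of 8 further mitosis lists gave the setting of the members. With PGE1, 49 (35.3%) were higher and 17 (12.2%) lower than in DMSO, against 23.6% higher and 25.5% lower over all genes tested. In dKO 24 (17.3%) were higher and 9 (6.47%) lower than in WT, against 18% and 22.9% over all genes, so the share higher was near the background. With PGE2 1 was higher (0.719%) and 2 lower (1.44%) than in DMSO, against 0.996% and 4.57%, which leaves too few calls to read. In DMSO 11 (7.91%) were higher and 87 (62.6%) lower than in WT, against 26% and 30.7%. Of 29 other centromere and kinetochore genes, 13 rose with PGE1 and 1 fell; Hjurp, the chaperone that loads Cenpa, averaged 33.9 ± 4.25 FPKM in PGE1 and 24.6 ± 0.391 FPKM in DMSO (1.37-fold, limma adjusted p = 0.00285). Dsn1 and Nsl1, subunits of the Mis12 complex that anchors Ndc80, rose 1.46-fold and 1.39-fold. Of 17 condensin and cohesin genes 6 rose and 1 fell, and the condensin I subunits Ncapd2, Ncapg and Ncaph rose 1.40-fold, 1.34-fold and 1.26-fold. Among spindle and centrosome genes 12 of 27 rose and 2 fell, with Ckap2l at 28.8 ± 1.86 FPKM in PGE1 and 16.6 ± 0.406 FPKM in DMSO and Rcc1, the exchange factor of Ran, at 20.3 ± 2.96 FPKM in PGE1 and 42.2 ± 1.55 FPKM in DMSO. Other lists rose less often with PGE1. Of 8 other checkpoint genes 1 rose and 2 fell, and of 16 APC/C genes 3 rose (18.8%) and 1 fell. Of 14 other genes of the Cdk1 switch 5 rose and 3 fell, and of 9 other cytokinesis genes 3 rose and 1 fell.

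The genes that switch Cdk1 on moved in opposite directions with PGE1. Cdc25a, the phosphatase that acts mainly before mitosis, averaged 8.46 ± 0.865 FPKM in PGE1 and 16.9 ± 0.728 FPKM in DMSO (log2 difference -0.92 ± 0.08 SE, limma adjusted p = 2.9e-05). Cdc25b, the phosphatase that starts mitotic entry, averaged 16.4 ± 0.761 FPKM in PGE1 and 8.48 ± 0.705 FPKM in DMSO (log2 difference 0.88 ± 0.07 SE, limma adjusted p = 2.95e-05). In dKO the pair went the other way, with Cdc25a averaging 30.9 FPKM in dKO, against 24.6 FPKM in WT, and Cdc25b 6.93 FPKM in dKO, against 9.19 FPKM in WT (limma adjusted p = 0.00176 and 0.00164). Of 19 listed regulators of these promoters, 6 were higher and 6 lower in PGE1 than in DMSO (31.6% each), against 23.6% and 25.5% over all genes. E2f2, with the smallest p among them, averaged 9.16 ± 0.120 FPKM in PGE1 and 4.64 ± 0.134 FPKM in DMSO (limma adjusted p = 3.53e-05). Mybl2, which encodes B-Myb, averaged 5.57 ± 1.44 FPKM in PGE1 and 13.3 ± 0.726 FPKM in DMSO (limma adjusted p = 0.000181). Rbl2, the pocket protein p130 that represses these promoters in resting cells, averaged 16.5 ± 1.40 FPKM in PGE1 and 8.96 ± 0.783 FPKM in DMSO (limma adjusted p = 9.27e-05). Fzr1, the APC/C activator of late mitosis and G1, rose 1.43-fold with PGE1. In DMSO cells Mybl2 was lower than in WT cells (13.3 FPKM in DMSO, 21.8 FPKM in WT, limma adjusted p = 3.55e-05), and Cdkn1a, the p21 inhibitor of cyclin-dependent kinases, averaged 97.0 ± 4.38 FPKM in DMSO and 57.6 ± 1.53 FPKM in WT (limma adjusted p = 9.1e-06).

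DNA replication genes, used as a comparison from S phase, gave other counts than the mitosis genes with PGE1. Of 40, 4 were higher and 17 lower in PGE1 than in DMSO (median -0.18, against 0.17 for the members), and 3 were higher and 28 lower in PGE1 than in PGE2 (median -0.38, against 0.09). In dKO 21 were higher and 0 lower than in WT (median 0.14, against 0.04), and in DMSO 1 was higher and 37 lower than in WT. Rrm2, the small subunit of ribonucleotide reductase, averaged 28.4 ± 5.31 FPKM in PGE1 and 69.5 ± 2.01 FPKM in PGE2. Over all genes tested, 23.6% were higher and 25.5% lower in PGE1 than in DMSO, and 27.2% and 26.7% in PGE1 than in PGE2. The shares were 18% higher and 22.9% lower in dKO than in WT, and 26% and 30.7% in DMSO than in WT. The difference between both gene lists was not tested.

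Some markers of other cells moved in the same comparisons. Over all genes tested, 23.6% were higher and 25.5% lower in PGE1 than in DMSO. The shares were 18% and 22.9% in dKO against WT, and 26% and 30.7% in DMSO against WT. The summed level of 10 neutrophil markers was 1801 to 2660 FPKM in PGE1, 6865 to 6941 FPKM in PGE2 and 4674 to 5564 FPKM in DMSO, with 7 of 9 tested markers lower and 0 higher in PGE1 than in DMSO. The 8 mast cell and basophil markers summed to 248 to 329 FPKM in PGE1 and 184 to 207 FPKM in DMSO, with 5 of 8 higher and 1 lower. The 10 erythroid markers summed to 32.7 to 48.7 FPKM in PGE1 and 86.3 to 88.3 FPKM in DMSO, with 2 of 6 tested markers higher and 3 lower. Of the 10 monocyte and macrophage markers 2 were higher and 5 lower in PGE1 than in DMSO. Of 9 tested megakaryocyte markers 2 were higher and 2 lower (22.2% each), near the shares over all genes. Neutrophil markers were thus mostly lower in PGE1 than in DMSO, and mast cell markers mostly higher. In dKO the monocyte and macrophage markers summed to 421 to 507 FPKM, against 1126 to 1170 FPKM in WT, with 9 of 10 lower. The 10 megakaryocyte markers summed to 56.9 to 111 FPKM in dKO and 240.2 to 261 FPKM in WT, with 9 of 9 tested markers lower. The mast cell and basophil markers summed to 79.6 to 89.2 FPKM in dKO and 141 to 143 FPKM in WT, with 5 of 7 lower. These 3 lists did not overlap between dKO and WT in their summed level. The neutrophil markers summed to 9363 to 9491 FPKM in dKO, against 6963 to 7303 FPKM in WT, with 4 of 9 higher and 4 lower. The erythroid markers summed to 139 to 142 FPKM in dKO and 101 to 108 FPKM in WT, with 1 of 6 higher and 3 lower. In DMSO, against WT, 2 of 9 neutrophil markers were higher and 6 lower, 5 of 8 mast cell and basophil markers were higher and 1 lower, and 5 of 10 monocyte and macrophage markers were higher and 1 lower. The 8 T and NK markers summed to at most 2.04 FPKM in any library, and Ly6g, which defines mature neutrophils, was at most 0.778 FPKM. The part of these cells in the mitotic differences was not tested.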

How the data were processed

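RNA from 14 libraries of sorted LSCs was sequenced. The authors made the deposited FPKM with CASAVA 1.8, TopHat and Cufflinks on build mm9, per the submitters' processing notes; the labels and files state no annotation, strand handling or treatment of shared reads. The reference at hand is a later build, so no member coordinates were taken from the files. Whole reads were recovered from the FPKM steps in 100% of 19057 genes (within 0.0001 of a read) and gave the depths. Two-sided tests used limma 3.58.1 in R 4.3.3 (eBayes with trend) on log2(FPKM + 1), over genes averaging 1 FPKM or more, with Benjamini-Hochberg adjustment over all genes tested and a threshold of 0.05. The 6 untreated libraries, the 8 treated libraries, and DMSO with WT were separate fits. All 40 members passed the filter in each. Log2 differences understate changes of low genes; folds are ratios of mean FPKM. Tcf7 and Lef1 were tested by exact permutation. The fits were tested on simulated data, with 200 genes changed and the same typical spread for every gene. They recovered 68% of 1.25-fold changes in dKO against WT, 56% in DMSO against WT and 30% in PGE1 against DMSO. Only 16% were recovered in PGE1 against PGE2 and 14% in PGE2 against DMSO, so simulated differences of that size were mostly missed there. The real fits called 6057 and 626 of 11242 genes in these comparisons, and the adjustment is laxer when more genes differ. The share that the real fits missed was therefore not measured. At 1.5-fold 74% to 98% were recovered. False calls were 2.63% to 7.05% of calls, above 5% in PGE1 against PGE2 (7.05%) and dKO against WT (6.63%). Members and lists were chosen with earlier results of these data known. Besides members, up to 4 called genes with the smallest p per list and comparison were eligible to be named. Intervals are 95%. Alternatives changed the pseudocount, filter, scaling, variance trend, replicate block and libraries used. The other steps used Python 3.11.15 (pandas 2.3.3, numpy 2.4.6, scipy 1.17.1) and matplotlib 3.10.9 for plots.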

Additional observations from a re-analysis of the deposited data

How the results depend on the processing

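No member's difference that passed the test turned round under any alternative. Of the members called, 6 of 12 in dKO against WT, 13 of 19 in PGE1 against DMSO, 8 of 17 in PGE1 against PGE2 and 31 of 35 in DMSO against WT were called under every alternative run. Leaving out 1 library at a time gave 6 to 15 members called in dKO against WT, 9 to 22 in PGE1 against PGE2 and 0 to 4 in PGE2 against DMSO, and 125 to 1218 genes called over all in PGE2 against DMSO, against 626 as reported. With DMSO replicate 1 and PGE1 replicate 2 both left out, a choice made after seeing the data, 1763 genes and 6 members were called in PGE2 against DMSO. Deviations of same-numbered libraries from their group means correlated at -0.37 to 0.38, and in no comparison were all correlations over 0.1. With so few libraries per group, this check cannot tell whether the replicate numbers pair the samples. With the replicate number as a block, 269 genes were called in PGE2 against DMSO, and 9 members in dKO against WT, 16 in PGE1 against DMSO, 12 in PGE1 against PGE2 and 36 in DMSO against WT. The cause of these shifts was not tested.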

Other observations

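The 10 non-member genes whose levels were most like the members' mean over the 14 libraries, among genes averaging at least 5 FPKM, were Rad21, Eif4b, Brd3, Elovl6, Ints7, Thtpa, Wdr48, Galnt1, Shcbp1 and Haus4. Their Pearson correlations ran from 0.955 for Rad21 to 0.918 for Haus4, as a description with no test, since the libraries share groups and depth. Rad21, the cohesin subunit that separase cuts, averaged 57.8 FPKM in dKO, 55.1 FPKM in PGE1, 50.0 FPKM in PGE2, 47.1 FPKM in DMSO and 55.5 FPKM in WT. Elovl6, a fatty acid elongase, averaged 10.7 FPKM in dKO, 7.9998 FPKM in PGE1, 7.22 FPKM in PGE2, 4.99 FPKM in DMSO and 8.06 FPKM in WT.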
